A study of Mus musculus with 5 samples.

Results

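The genes described here load peptides onto MHC class I molecules and bring them to the cell surface. They are 10 of the 31053 genes in the deposited matrices and were found there by symbol. They comprise the heavy chain genes H2-K1, H2-D1 and H2-Q7, the light chain gene B2m, the transporter genes Tap1 and Tap2, the chaperone gene Tapbp, the immunoproteasome genes Psmb8 and Psmb9, and the regulator gene Nlrc5. All 10 were found, and they were followed in 5 single-cell RNA-seq libraries of mouse BM, with 1 library per condition. Whole BM came from untreated (naive) mice and from mice taken on day 2 (D2 CTX) or day 7 (D7 CTX) after 150 mg/kg of cyclophosphamide (CTX), an alkylating drug given into the peritoneum. A further pair of libraries held CD11b+Ly6Chi monocytes that had been sorted out of the BM, either of naive mice (naive sorted) or of CTX-treated mice (CTX sorted). The labels give no day for the CTX sorted cells, and the study's results text and figure legend place them on day 7. The methods name BALB/c mice bought at 4 to 8 weeks of age, no transgene is named, and each whole BM library pooled cells of 3 mice. How many mice gave the sorted cells is not clear from the sources used here. With 1 library per condition there was no test between conditions, no p-value and no estimate of the spread between mice. The intervals in parentheses are exact 95% intervals and cover counting error only.

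MHC class I molecules display peptides from inside the cell to CD8+ T cells, and NK cells read them as a sign of self. The proteasome cuts proteins into peptides, the TAP transporter moves them into the endoplasmic reticulum, and tapasin, the product of Tapbp, holds the empty heavy chain and B2m next to TAP until a peptide binds. Interferons raise the transcription of most of these genes, in part through NLRC5 at a shared promoter module and in part through IRF proteins at interferon-stimulated response elements (ISREs).

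Gene positions were read from the annotation of GRCm38, the assembly that mm10 also names. B2m lies on chromosome 2 (122147686 to 122153083) and Nlrc5 on chromosome 8 (94434356 to 94527272). The others lie on chromosome 17, in the MHC. The heavy chain genes there are H2-K1 (33996017 to 34000347), H2-D1 (35262730 to 35267499) and H2-Q7 (35439155 to 35443773), and Tapbp lies at 33915899 to 33929292. Psmb9 (34181987 to 34187764), Tap1 (34187553 to 34197225), Psmb8 (34197721 to 34201454) and Tap2 (34203527 to 34216321) form a cluster in which Psmb9 and Tap1 point away from each other and their starts overlap. RefSeq promoter sequence (GRCm38.p6) matched 8 of the 10 genes, all but Tap2 and Nlrc5. The 3 windows printed here hold no annotated exon. They run 5′ to 3′ on the strand of the gene and end just before its start. Capitals mark matches on either strand to TGACG (the core of the X2 box of the module), CCAAT, GGGATTCC (a core of NF-kappaB sites) and GAAANNGAAA (a form of ISRE). TGACG and CCAAT are in all 3 windows, GGGATTCC in those of H2-K1 and H2-Q7, and GAAANNGAAA in that of B2m.
H2-K1, chr17:34000348-34000597, minus strand: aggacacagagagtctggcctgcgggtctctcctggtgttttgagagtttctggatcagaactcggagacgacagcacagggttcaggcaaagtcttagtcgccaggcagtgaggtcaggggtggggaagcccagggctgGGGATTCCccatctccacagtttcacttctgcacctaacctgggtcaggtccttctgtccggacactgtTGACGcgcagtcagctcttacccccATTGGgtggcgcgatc
H2-Q7, chr17:35438905-35439154, plus strand: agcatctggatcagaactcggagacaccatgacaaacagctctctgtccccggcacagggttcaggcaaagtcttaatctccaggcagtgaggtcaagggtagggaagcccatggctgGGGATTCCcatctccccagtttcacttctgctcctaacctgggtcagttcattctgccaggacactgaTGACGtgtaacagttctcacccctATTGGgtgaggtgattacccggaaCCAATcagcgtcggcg
B2m, chr2:122147437-122147685, plus strand: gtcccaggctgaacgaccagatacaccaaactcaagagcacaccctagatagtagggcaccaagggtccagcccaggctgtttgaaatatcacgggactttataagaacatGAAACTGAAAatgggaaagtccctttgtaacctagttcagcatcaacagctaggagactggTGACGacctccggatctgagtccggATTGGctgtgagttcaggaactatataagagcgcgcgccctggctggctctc
In the 250 bases before the RefSeq start, TGACG was found in 6 of the 8 genes (B2m, H2-D1, H2-K1, H2-Q7, Psmb9 and Tap1) and in 17.8% of all 32851 windows. For some genes this start differs from the position given above. The windows of Tapbp (33919228 to 33919477), Psmb8 (34197945 to 34198194), H2-D1 (35262844 to 35263093) and Psmb9 (34187331 to 34187580) lie within those positions. CCAAT was found in 7 of the 8, all but Psmb8, and in 33.8% of windows. GGGATTCC was found in H2-K1, H2-D1 and H2-Q7 and in 0.889% of windows. GAAANNGAAA was found in B2m alone of the 8 genes and in 2.98% of windows. The windows of Psmb9 and Tap1 share most of their bases, and a match says only that the letters are there. A miss says only that these exact letters are absent from the window searched, so other forms of an ISRE can be present.

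The values are counts of unique molecular identifiers (UMIs) from a 3′ tag protocol, and a level is the count per 1000000 UMIs of a library or cell class (CPM). The libraries held 2223 to 8605 barcodes, of which 1891 to 8290 had at least 200 genes and under 20% mitochondrial UMIs. These barcodes are fewer than the cells that the text of the study counts, so the levels and ratios given here describe the deposited barcodes. Those kept held 22279758 to 67921924 UMIs per library, and any pair of libraries shared 1 to 15 barcodes. A cell was given a class when at least 3 of its 8 markers were detected and no other class had as many, which left 9.02% of naive cells, 10.8% of day 2 cells and 12.9% of day 7 cells without one. In these libraries 32.3%, 38.9% and 60.3% of cells met 2 gates, and 3.69%, 6.45% and 0.663% met gates of 2 lineages. Doublets were not removed. In naive BM, 4 to 7 of the markers were among the 10 leading genes of each class with at least 30 cells other than plasma cells, whose leading genes were antibody genes. For D7 CTX neutrophils 3 were. The gates chose cells by these same markers, so this is no separate check of the identity of a class. The labels call the whole BM cells CD45+, and Ptprc, which codes for CD45, was detected in 76.4% of naive cells, 88.4% of day 2 cells and 85.7% of day 7 cells. In the sorted libraries Ly6c2 was detected in 95.6% of naive and 95.2% of CTX cells, and Itgam, which codes for CD11b, in 74.7% and 67.3%.

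The mice are BALB/c, whereas mm10 is a C57BL/6 genome, so UMIs of the polymorphic heavy chains can be missed or given to a neighbouring gene. H2-L, a classical heavy chain of BALB/c mice, is not analysed here. In the reference, 10.2% of the 50-base windows in the last 400 bases of H2-K1 transcripts, 10.1% of those of H2-D1 and 0.513% of those of H2-Q7 also occur in another gene. The shares were 3.53% for Tap1, 4.56% for Tapbp and 0 for the other 5 genes. Levels of H2-K1, H2-D1 and H2-Q7 are therefore uncertain, and the part of the reference in their ratios was not tested.

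On day 2 after CTX most class I genes stood higher in whole BM than in naive BM, and on day 7 most stood lower. In a whole library, fewer cells of a type and less RNA per cell cannot be told apart. H2-K1, a classical heavy chain gene, had 379.6 CPM (374 to 385) in naive BM, 548 (540.2 to 556) on day 2 and 259.7 (256 to 264) on day 7. B2m, the light chain that every class I heavy chain needs, had 676 CPM (668 to 683), 909.7 (899.6 to 919.9) and 491 (486 to 496). In both genes the order was D2 above naive above D7, with no overlap between the intervals. H2-D1, the other classical heavy chain gene, was nearly level, at 1096 CPM (1086 to 1105) in naive BM, 1121 (1110.0 to 1132) on day 2 and 1059.9 (1052 to 1068) on day 7. H2-Q7, which codes for the nonclassical molecule Qa-2, had 34.0 CPM (32.4 to 35.8) in naive BM, 55.5 (53.1 to 58.1) on day 2 and 10.53 (9.77 to 11.3) on day 7, the widest relative range of the 3 heavy chains.

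**Figure D1:**
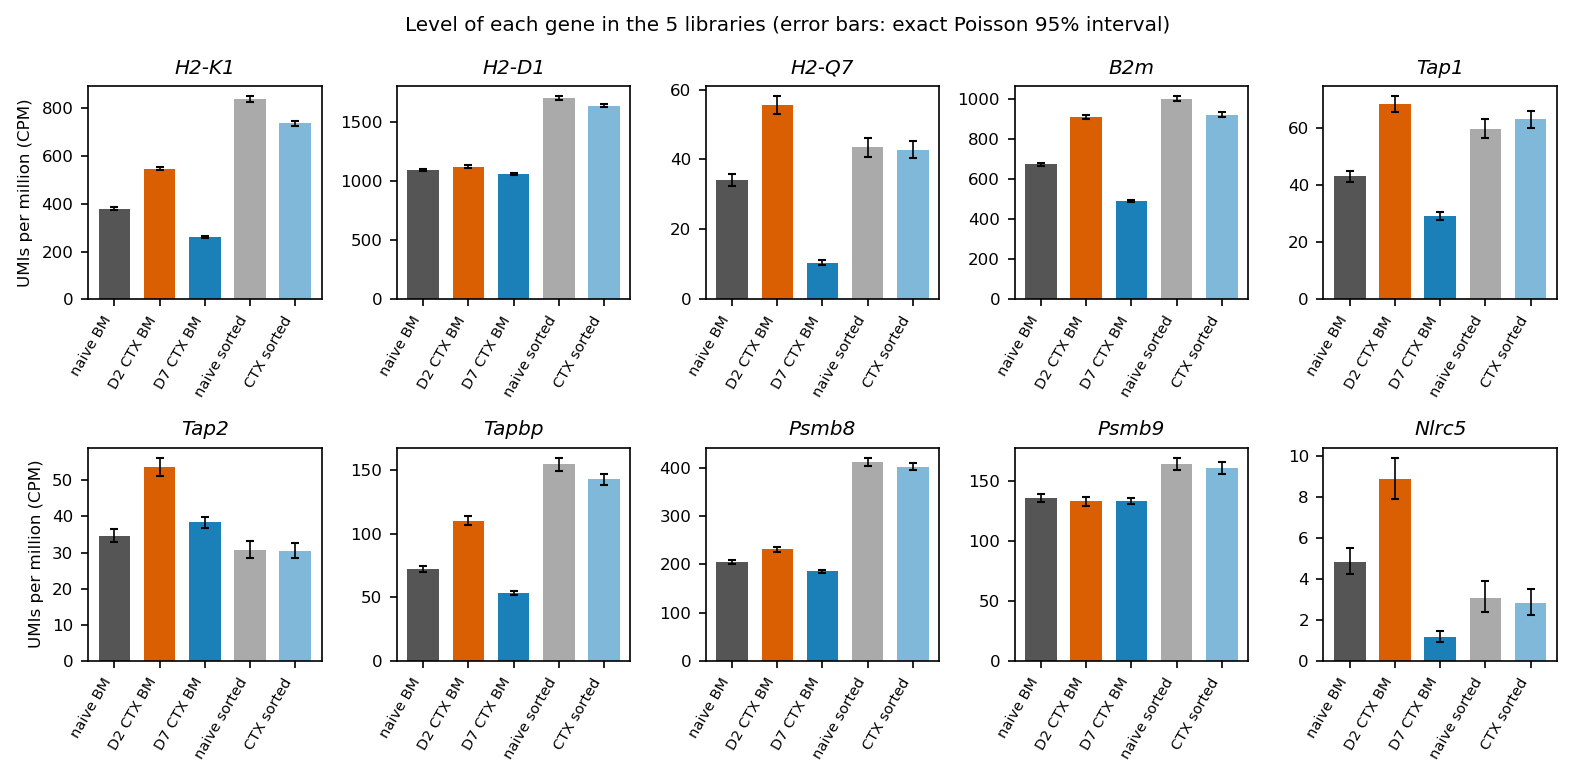
Level of each of the 10 genes, in CPM, in the 3 whole BM and 2 sorted libraries, with exact Poisson 95% intervals as error bars and an axis from 0 in each panel. H2-K1, B2m, Tap1, Tapbp, H2-Q7 and Nlrc5 are highest in D2 CTX and lowest in D7 CTX among the whole BM libraries, while the sorted pair differs little.

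The transporter and chaperone genes stood highest in D2 CTX BM as well. Tap1 had 43.1 CPM (41.2 to 45.03) in naive BM, 68.3 (65.5 to 71.1) on day 2 and 29.1 (27.8 to 30.4) on day 7. Tapbp had 72.0 CPM (69.6 to 74.5), 110.0 (106 to 114) and 53.3 (51.6 to 55.1). Tap2, whose product pairs with that of Tap1, was not below naive in D7 CTX BM. It had 34.7 CPM (33.0 to 36.5) in naive BM, 53.8 (51.3 to 56.3) on day 2 and 38.4 (36.9 to 39.9) on day 7. The immunoproteasome genes, whose products take the place of constitutive subunits, differed less. Psmb8 had 205 CPM (201 to 209.5), 232 (227 to 237) and 186 (182 to 189), and Psmb9 136 CPM (132 to 139), 133 (129 to 137) and 133 (130.5 to 136), with overlap between all 3 libraries. Nlrc5, the transcriptional activator of class I genes, was scarce, with 222, 300 and 79 UMIs, or 4.82 CPM (4.21 to 5.50), 8.84 (7.87 to 9.90) and 1.16 (0.921 to 1.45).

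As log2 ratios of D2 CTX over naive BM, the 10 genes ran from -0.030 (-0.085 to 0.026) for Psmb9 to 0.88 (0.62 to 1.13) for Nlrc5, with a median of 0.57. The intervals of 9 lay above 0, that of H2-D1 (0.033) among them, and they cover counting error only. How many of all genes had such an interval was not counted, here or for the lists below. H2-Q7 stood at 0.71 (0.61 to 0.80), Tap1 at 0.66 (0.58 to 0.75), Tap2 at 0.63 (0.53 to 0.73), Tapbp at 0.61 (0.54 to 0.68), H2-K1 at 0.53 (0.50 to 0.56) and B2m at 0.43 (0.41 to 0.45). Calls were limited to genes with at least 200 UMIs over both libraries and 20 CPM in 1 of them, and needed a difference of 0.5 log2 units with 1 CPM added. Of the 9 genes within these limits (Nlrc5 was not), 5 were called higher (H2-K1, Tap1, Tap2, Tapbp and H2-Q7) and 0 lower. Of all 6221 genes compared, 24.6% were called higher, and their median was 0.17. With the ratios centred on that median, H2-Q7 alone of the 9 was called higher, against 932 of all 6221 genes. The median of the members was then 0.40.

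For D7 CTX over naive BM the ratios ran from -2.05 (-2.44 to -1.67) for Nlrc5 and -1.69 (-1.82 to -1.56) for H2-Q7 up to 0.15 (0.055 to 0.24) for Tap2, with a median of -0.45. H2-K1 stood at -0.55 (-0.58 to -0.52), Tap1 at -0.57 (-0.66 to -0.48), B2m at -0.46 (-0.48 to -0.44) and Tapbp at -0.43 (-0.50 to -0.37). Of the 9 genes within the limits 3 were called lower (H2-K1, Tap1 and H2-Q7), whereas 54.9% of all 5608 genes compared were called lower and their median was -0.58. The share of members called lower was thus below that of all genes. With the ratios centred on the median, H2-K1 (0.031) and Tap1 (0.012) lay on the other side of 0, 3 members were called higher (H2-D1, Tap2 and Psmb9) and 1 lower (H2-Q7), and of all genes 1264 were called higher and 1058 lower. Without the 20 most abundant genes in the total, the median of the members was -0.012. For D7 over D2 CTX BM 5 of 9 members were called lower (H2-K1, B2m, Tap1, Tapbp and H2-Q7), against 62.2% of all genes, with a median of -0.97 for the 10 members and -0.71 for all genes. These 3 comparisons share libraries.

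The share of cells with a UMI followed the same order once each cell was thinned to 1000 UMIs. H2-K1 was detected in 32.6% (31.5 to 33.7) of naive cells, 42.3% (41.0 to 43.6) of day 2 cells and 19.9% (19.0 to 20.8) of day 7 cells. The unthinned shares were 63.7%, 68.6% and 64.4%, and thinning left out 285, 599 and 73 shallower cells. No BM class can be taken to lack H2-K1, so the class with the lowest level serves as the reference. It was detected in 8.15% (5.71 to 11.2) of thinned naive erythroid cells, whose median depth was 15872 UMIs before thinning, and in 85.5% (78.5 to 90.9) of thinned naive T cells, with 2697 UMIs.

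In naive BM the class I genes were ordered by cell class, with lymphocytes near the top and erythroid cells near the bottom. H2-K1 stood at 1629 CPM (1509.9 to 1755) in the 139 T cells, 1180.5 (1098 to 1267) in the 91 NK cells, 753 (736 to 770.1) in the 1938 B lineage cells and 550.0 (528 to 573) in the 549 monocytes. Its lowest levels were 196 CPM (184 to 209.8) in neutrophils, 136 (129 to 144) in their precursors and 78.9 (72.9 to 85.2) in erythroid cells. From early progenitors, at 358 CPM (333 to 385), down to erythroid cells each interval lay apart from the next. Among the higher classes the intervals of plasma and B lineage cells overlapped, as did those of neighbours in the order from plasmacytoid dendritic cells through monocytes, macrophages and basophils or mast cells to early progenitors. T cells also stood first for H2-D1, Tap1, Tap2, Nlrc5 and H2-Q7, apart from the next class for H2-D1 alone of these.

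**Figure D2:**
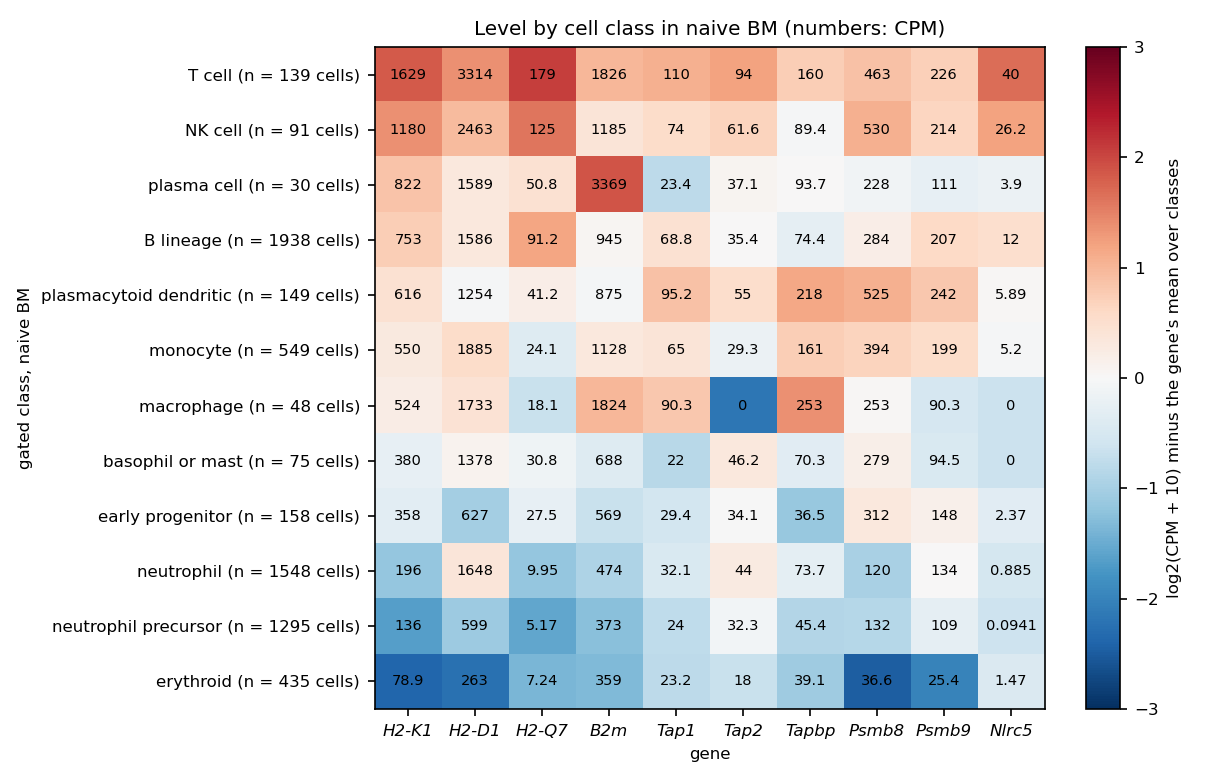
Level of each gene (columns) in 12 gated cell classes of naive BM (rows, with the number of cells), printed in CPM and coloured by log2(CPM + 10) minus the mean of the gene over the classes. T and NK cells are high for most genes, erythroid cells and neutrophil precursors are low, and B2m is highest in plasma cells.

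The order was not the same for every gene. H2-D1 stood at 1648 CPM (1611 to 1686) in naive neutrophils, which overlapped 1589 (1482 to 1702) in plasma cells, whereas H2-K1 was low in neutrophils. B2m was highest in the 30 plasma cells, at 3369 CPM (3212 to 3532), and next in T cells, at 1826 (1700.2 to 1959), and macrophages, at 1824 (1485 to 2216), which overlapped. Tapbp stood at 218 CPM (190.1 to 248) in plasmacytoid dendritic cells, specialised producers of interferon, and its macrophage level of 253 (138 to 424) rests on 14 UMIs. Psmb8 was high in NK cells at 530.1 CPM (476 to 589) and in plasmacytoid dendritic cells at 525 (481 to 571), with overlap, and lowest in erythroid cells at 36.6 (32.5 to 41.0). Nlrc5 stood at 40.0 CPM (23.3 to 64.0) in T cells, 26.2 (15.3 to 41.9) in NK cells and 12.01 (9.95 to 14.4) in B lineage cells, and lower in the other classes. It was counted at 0 in basophils or mast cells, where 3 UMIs would be 6.59 CPM, and in macrophages, where they would be 54.2 CPM.

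Within classes the D2 CTX differences were uneven. In B lineage cells, 1938 naive and 1630 D2 CTX, 4 of 9 members were called higher (H2-K1, Tap2, Tapbp and H2-Q7) and 1 lower (Psmb9), where 30.2% of all genes compared were called higher and 16.7% lower. Tapbp stood at 74.4 CPM in naive cells and 185 on day 2, a log2 ratio of 1.31 (1.17 to 1.45). H2-K1 stood at 753 and 1115 CPM, a ratio of 0.57 (0.52 to 0.62). Psmb9 stood at 207 and 134 CPM, a ratio of -0.63 (-0.75 to -0.50). The gate spans early and later B cells. Cells with transcripts of precursor genes numbered 1006 in naive BM and 368 on day 2, and cells with Ms4a1, which codes for CD20, 485 and 1006. The H2-K1 ratio was 0.64 (0.55 to 0.72) in the precursor cells and 0.18 (0.089 to 0.28) in the cells with Ms4a1, and the Tapbp ratio 1.12 (0.85 to 1.38) and 0.59 (0.35 to 0.84). The Tap2 ratio was 0.83 (0.45 to 1.19) and -0.042 (-0.46 to 0.39), and the Psmb9 ratio -0.67 (-0.89 to -0.45) and -0.18 (-0.43 to 0.065). In the cells with Ms4a1 the intervals of Tap2 and Psmb9 thus held 0, and the part of the mix of B cells in the B lineage ratios was not tested. With the mean of the CPM of the cells, in which each cell counts alike, the B lineage ratio was 0.24 for H2-K1 and 0.90 for Tapbp.

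**Figure D3:**
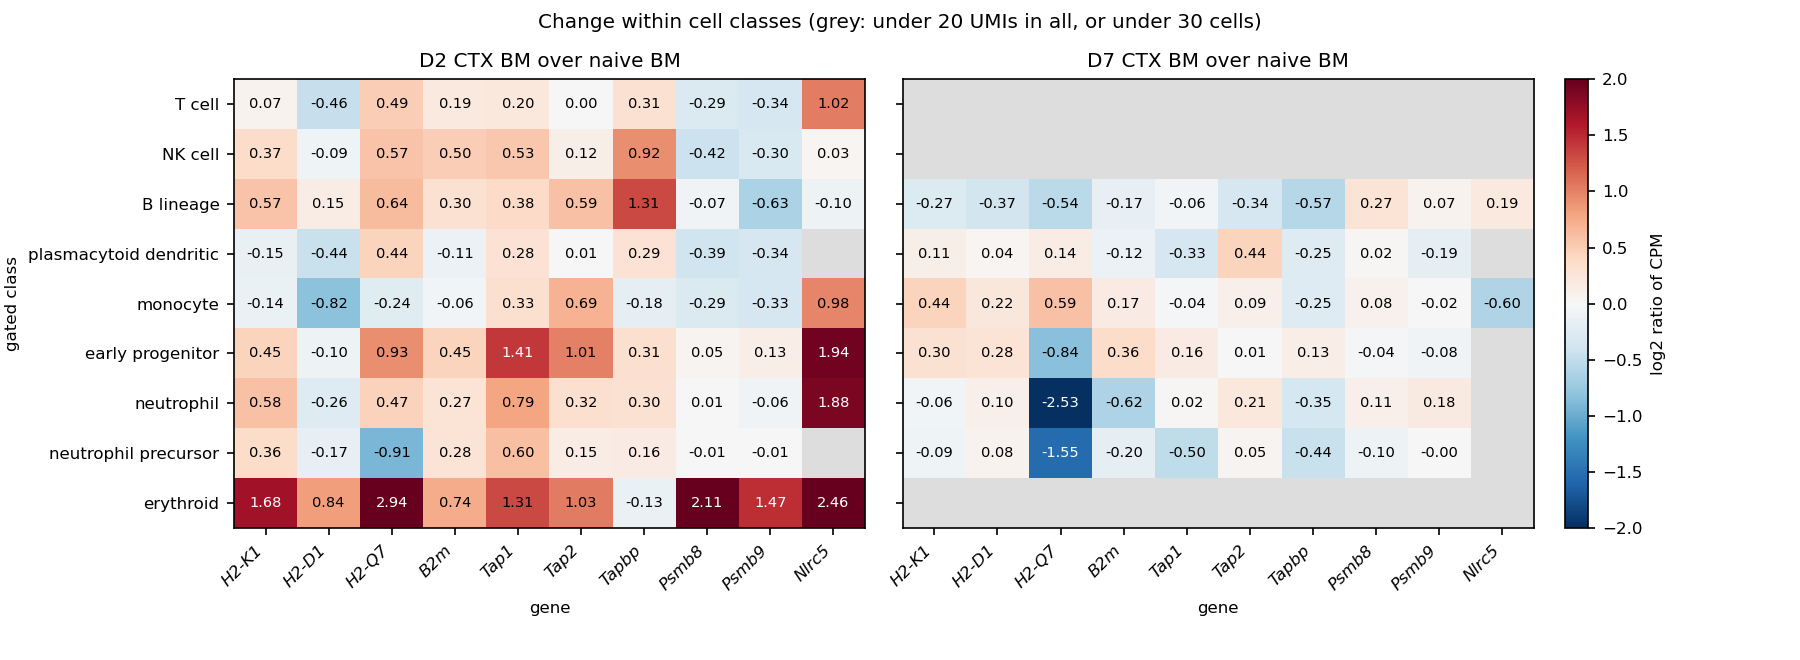
Log2 ratio of CPM for each gene (columns) within gated cell classes (rows), D2 CTX over naive BM on the left and D7 CTX over naive BM on the right, with the values printed and grey cells where too few UMIs or cells were at hand. On the left the erythroid row is above 0 except for Tapbp and the monocyte row is lowest for H2-D1, and on the right H2-Q7 is below 0 in neutrophils and their precursors and above 0 in monocytes.

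In neutrophils, 1548 naive and 2307 D2 CTX, H2-K1 stood at 196 and 295 CPM, a ratio of 0.58 (0.47 to 0.70), and Tap1 at 32.1 and 55.3, a ratio of 0.79 (0.51 to 1.07). These were the 2 members called higher of the 8 within the limits, against 29.9% of all genes compared, and the median of the 10 members (0.31) was close to that of all genes (0.33). H2-D1 was lower, at 1648 and 1374 CPM, and the sum of H2-K1 and H2-D1 gave a ratio of -0.14. In T cells, 139 naive and 326 D2 CTX, the H2-K1 ratio was 0.074 (-0.055 to 0.20) and the H2-D1 ratio -0.46 (-0.56 to -0.36). Nlrc5 in T cells had 17 and 81 UMIs, or 40.0 and 81.2 CPM, a ratio of 1.02 (0.26 to 1.87).

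In monocytes the members differed in direction on day 2. In 549 naive and 199 D2 CTX monocytes H2-D1 stood at 1885 and 1065 CPM, a ratio of -0.82 (-0.88 to -0.76). H2-K1 stood at 550.0 and 499, a ratio of -0.14 (-0.24 to -0.044), and B2m at 1128 and 1082, a ratio of -0.060 (-0.13 to 0.0055). Tap1 had a ratio of 0.33 (0.068 to 0.58), and Nlrc5, with 22 and 29 UMIs, one of 0.98 (0.13 to 1.85). Of the 8 members within the limits Tap2 (0.69, 0.33 to 1.05) was called higher and H2-D1 lower, where 14.8% of all genes compared were called higher and 9.41% lower. The 8 markers of early progenitors together stood at 1569.7 CPM in naive and 3039.6 in D2 CTX monocytes, and those of monocytes at 6832 and 5220.3, and their part in the H2-D1 ratio was not tested. Without cells that met 2 gates the H2-D1 ratio was -0.22 and that of H2-K1 0.33, and with the mean of the CPM of the cells the H2-D1 ratio was -0.42.

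Erythroid cells and early progenitors, both few on day 2, had higher levels of several members. Between 435 naive and 60 D2 CTX erythroid cells 7 of the 8 members within the limits were called higher, against 26.8% of all genes compared. Of these, Tap2, at 18.0 CPM in naive cells, passed only through its D2 CTX level of 36.9 CPM. H2-K1 stood at 78.9 and 253 CPM, a ratio of 1.68 (1.504 to 1.86), and Psmb8 at 36.6 and 157, a ratio of 2.11 (1.86 to 2.35). Tapbp did not follow, with a ratio of -0.13 (-0.55 to 0.27). The 8 erythroid markers together stood at 5058 CPM in naive and 2821 in D2 CTX erythroid cells, those of early progenitors at 245 and 597, and the median depth at 15872 and 22376 UMIs, and their part in the difference was not tested. Without cells that met gates of 2 lineages the H2-K1 ratio was 1.69. In 158 naive and 93 D2 CTX early progenitors Tap1 stood at 29.4 and 78.1 CPM, a ratio of 1.41 (1.01 to 1.84). The markers of this class together stood at 36490.3 and 10358 CPM there, and their part was not tested.

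On day 7 some class values lay closer to naive than the library values (H2-K1 in neutrophils) and others further from it (B2m in neutrophils). In 791 D7 CTX monocytes H2-K1 stood at 745 CPM against 550.0 in naive, a ratio of 0.44 (0.37 to 0.51), and H2-D1 (0.22, 0.18 to 0.26) and B2m (0.17, 0.12 to 0.22) were above 0 too. H2-Q7 stood at 36.3 against 24.1 CPM, a ratio of 0.59 (0.25 to 0.94), and was the 1 member of 9 called higher, where 2.17% of all genes compared were called higher. In neutrophils, which are short-lived and leave the BM, H2-K1 had a ratio of -0.057 (-0.17 to 0.059) and B2m, at 309 against 474 CPM, of -0.62 (-0.70 to -0.54). In 180 D7 CTX B lineage cells 2 of 9 members were called lower, Tapbp (-0.57, -0.90 to -0.25) and H2-Q7 (-0.54, -0.84 to -0.25), against 16.9% of all genes compared. With the mean of the CPM of the cells the B lineage ratio of H2-Q7 was 0.086. T, NK and erythroid cells of D7 CTX BM numbered 14, 27 and 20, too few for a value.

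H2-Q7 was counted 18 times in 2096 D7 CTX neutrophils, 1.73 CPM, and 45 times in 1548 naive ones, 9.95 CPM, a ratio of -2.53 (-3.40 to -1.71). In neutrophil precursors it stood at 1.77 against 5.17 CPM, a ratio of -1.55 (-2.09 to -0.996). At such levels free RNA from other cells can add UMIs. The 8 B lineage markers together stood at 341 CPM in naive neutrophils, 283 on day 2 and 26.5 on day 7, none of them at 0 in any of these, and B lineage cells were 27.3%, 26.6% and 2.17% of the cells. Their part in the H2-Q7 ratio was not tested.

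The makeup of the BM differed between libraries. Neutrophil precursors, a class with low class I levels, held 23.1% of the UMIs in naive BM, 12.8% on day 2 and 51.5% on day 7. When the class levels of a treated library were weighted by the UMI shares of the classes in naive BM, the median ratio of the 10 genes went from 0.57 to 0.46 for D2 CTX and from -0.45 to -0.099 for D7 CTX. On day 7, H2-K1 went from -0.55 to -0.069, Tap1 from -0.57 to -0.14, B2m from -0.46 to -0.13 and Nlrc5 from -2.05 to -0.39. H2-Q7 went from -1.69 to -0.47 and Tapbp from -0.43 to -0.29. On day 2, Tap1 went from 0.66 to 0.60, H2-K1 from 0.53 to 0.45, H2-Q7 from 0.71 to 0.75 and H2-D1 from 0.033 to -0.11. The weighting took in 14 groups of cells, those without a class included. On day 7, 7 of these had fewer than 30 cells, the 20 erythroid cells among them, and they carried 22.5% of the weight. With groups of at least 30 cells alone, an alternative chosen after seeing the data, the median was 0.46 for D2 CTX and -0.082 for D7 CTX.

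**Figure D4:**
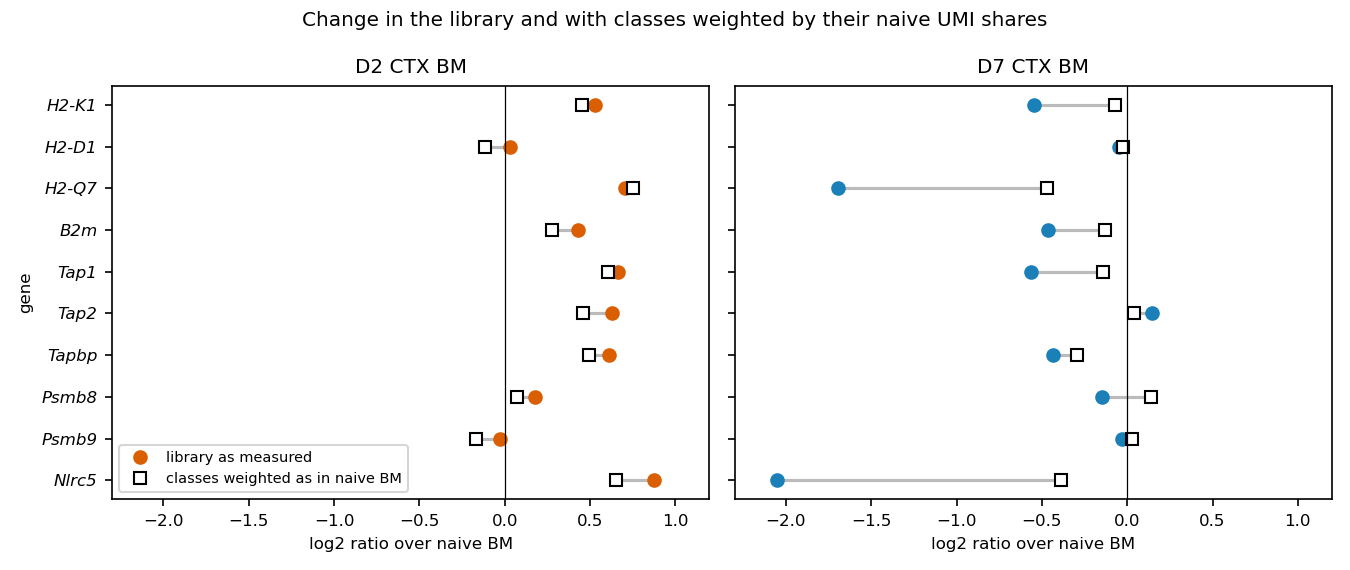
Log2 ratio over naive BM for each gene as measured in the library (filled circles) and with the classes weighted by their naive UMI shares (open squares), for D2 CTX BM on the left and D7 CTX BM on the right. On day 7 the squares lie closer to 0 than the circles for all 10 genes, with the widest moves for Nlrc5 and H2-Q7.

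The immunoproteasome was set against the constitutive proteasome by the UMIs of Psmb8, Psmb9 and Psmb10 over those of Psmb5, Psmb6 and Psmb7, the catalytic subunits they replace. This ratio does not depend on the library total. Its log2 was -0.089 (-0.12 to -0.060) in naive BM, 0.36 (0.32 to 0.39) on day 2 and 0.36 (0.33 to 0.38) on day 7. Psmb8 over Psmb5 alone gave 0.17, 0.69 and 0.54, Psmb9 over Psmb6 -0.31, 0.12 and 0.33, and Psmb10 over Psmb7 -0.31, -0.033 and -0.19. In D2 CTX BM the constitutive genes were themselves below naive in CPM, with ratios of -0.34 for Psmb5, -0.46 for Psmb6 and -0.080 for Psmb7. In D7 CTX BM they were lower still, at -0.51, -0.67 and -0.76. Psmb8, Psmb9 and Psmb10 were not above naive on day 7 either, with ratios of -0.15, -0.028 and -0.64. Among the classes of naive BM the log2 ran from -2.71 (-2.83 to -2.60) in erythroid cells to 1.13 (0.86 to 1.41) in T cells. In neutrophils it was 0.85 (0.72 to 0.99) at rest, 0.85 (0.74 to 0.95) on day 2 and 1.01 (0.93 to 1.10) on day 7. There Psmb10 over Psmb7, unlike the other pairs, was below 0, at -0.77, -0.87 and -1.05. In B lineage cells the log2 of all pairs was 0.065 (0.013 to 0.12), 0.50 (0.41 to 0.59) and 0.040 (-0.079 to 0.16). Split as above, B precursor cells had -0.0091 (-0.073 to 0.055) at rest and 0.23 (0.080 to 0.38) on day 2, and cells with Ms4a1 0.77 (0.60 to 0.93) and 0.74 (0.63 to 0.86), with overlap. The part of the mix of B cells in the B lineage values was not tested. Erythroid cells, the class with the lowest ratio, held 17.7% of the UMIs in naive BM, 5.11% on day 2 and 0.630% on day 7, and their part in the library values was not tested.

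**Figure D5:**
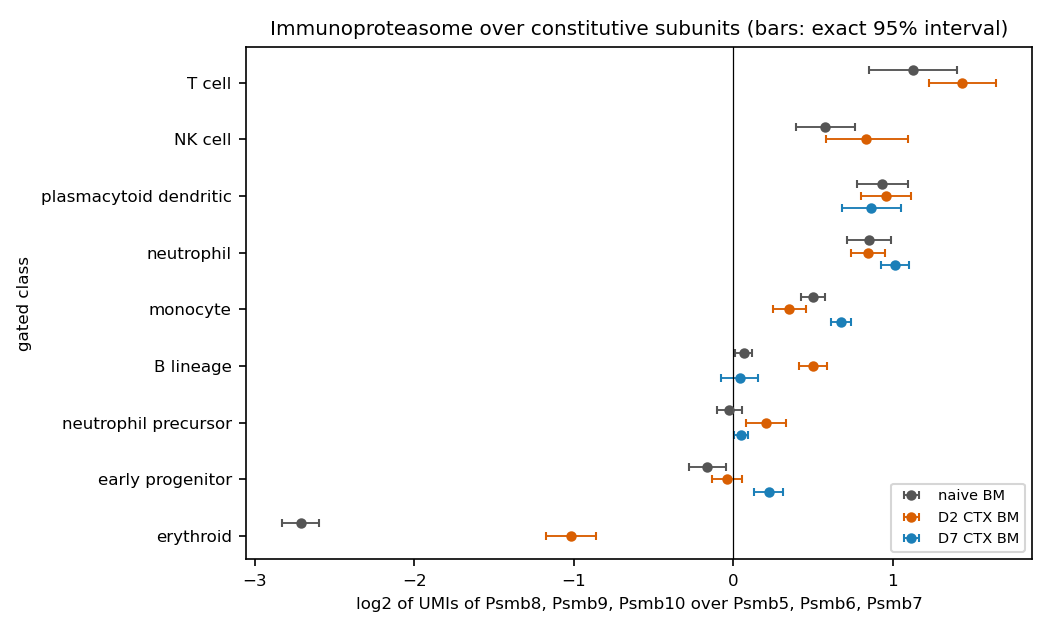
Log2 of the UMIs of Psmb8, Psmb9 and Psmb10 over those of Psmb5, Psmb6 and Psmb7 in gated classes (rows) of naive, D2 CTX and D7 CTX BM, with exact 95% intervals as bars and no point where a class had fewer than 30 cells. T cells lie to the right and erythroid cells to the left, and B lineage cells of D2 CTX BM lie to the right of those of the other libraries, with more cells with Ms4a1 (1006) than in naive BM (485).

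Other genes of the pathway were read from lists. Of 5 peptide loading genes 4 were within the limits and 3 were called higher in D2 CTX over naive BM, against 24.6% of all genes compared. They were Calr, which codes for the chaperone calreticulin (1.18, 1.14 to 1.21), Pdia3, a disulphide isomerase of the loading complex (0.69, 0.64 to 0.73), and Erap1, which trims peptides (0.58, 0.44 to 0.72). Erap1, at 17.1 CPM in naive BM, passed the limits only through its D2 CTX level of 25.6 CPM. Of Psmb10 and the proteasome activator genes Psme1 and Psme2, 0 of 3 were called, with ratios from 0.20 to 0.27. Of 9 other heavy chain genes 3 were within the limits and 0 were called, although 7 of the intervals lay above 0 and 1 below. The highest ratio was that of H2-T24 (1.22), at 8.53 CPM in naive and 19.8 in D2 CTX BM, just under the limit of 20 CPM. H2-T23, which codes for Qa-1, stood at 0.50 (0.43 to 0.56). Of 7 regulators, 5 had intervals above 0 and 1 below, with a median ratio of 0.46. Irf1, a carrier of interferon signals, was called higher (0.71, 0.60 to 0.82). The 1 interval below 0 was that of Rfxap, which codes for 1 subunit of the RFX complex, at -0.34 (-0.46 to -0.23).

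Interferon-responsive genes stood higher in D2 CTX BM throughout the list. All 16 intervals lay above 0, with ratios from 0.52 to 2.67 and a median of 1.26, beside 0.17 for all genes compared. Of the 10 within the limits 10 were called higher, against 24.6% of all genes compared. Ifit1, an antiviral RNA-binding protein gene, stood at 2.95 CPM in naive and 18.7 in D2 CTX BM, a ratio of 2.67 (2.40 to 2.94). Rsad2, which codes for viperin, stood at 10.7 and 42.2, and Isg15, a ubiquitin-like modifier gene, at 24.4 and 58.6 CPM. In neutrophils 8 of 8 genes within the limits were called higher, against 29.9% of all genes compared. In B lineage cells it was 6 of 6, against 30.2%, and in monocytes 3 of 9, against 14.8%. In D7 CTX over naive BM 13 of the 16 intervals lay below 0, with a median of -0.63 beside -0.58 for all genes compared.

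In the sorted monocytes the class I genes differed little between CTX and naive. The 10 ratios of CTX sorted over naive sorted ran from -0.19 to 0.076 with a median of -0.046. None of the 9 within the limits was called, where 0.775% of all 5549 genes compared were called higher and 2.9% lower. H2-K1 stood at 839 CPM (827 to 852) in naive sorted and 738 (728 to 748) in CTX sorted cells, a ratio of -0.19 (-0.21 to -0.16). B2m stood at 1003 CPM (989.8 to 1016) and 924 (913 to 935), a ratio of -0.12 (-0.14 to -0.093). For H2-D1 the ratio was -0.054 (-0.074 to -0.035) and for Tap1 0.076 (-0.027 to 0.18). Split by markers, the H2-K1 ratio was -0.12 (-0.19 to -0.050) in cells with azurophil granule genes, -0.041 (-0.089 to 0.0068) in the remaining cycling cells and -0.26 (-0.30 to -0.21) in the remaining others. Of the interferon-responsive genes 12 of 16 intervals lay below 0, and 3 of the 8 within the limits were called lower, namely Irf7 (-0.70), Isg15 (-0.66) and Zbp1 (-0.61).

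Across 30 points, the classes with at least 30 cells in each of the 3 whole BM libraries, H2-K1 followed the mean log2(CPM + 10) of the 10 genes most closely, with a Pearson r of 0.973, and Tap2 least, with 0.502, each being part of that mean. Of the other genes, the 5 most alike were Icam1 (0.880), Shisa5 (0.873), Mfng (0.859), Madd (0.859) and Elk3 (0.858). The points share libraries and related classes, so these values only describe the data at hand.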

How the data were processed

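For whole BM, cells of 3 mice per condition were pooled by the authors in equal numbers, and whole BM and sorted cells were sequenced as 10x 3′ libraries. Per the labels, reads were processed with Cell Ranger 3.1 against mm10, and Seurat 5.0 is named. The deposited matrices hold raw counts (UMIs per gene and barcode). Cells with at least 200 genes and under 20% mitochondrial UMIs were kept, as in the study's methods. Classes came from marker gates (at least 3 of 8 markers, the most of any class), without a doublet caller. UMIs were summed per library or class of at least 30 cells and divided by their total (CPM). Levels carry exact Poisson intervals, ratios exact conditional intervals and shares Clopper-Pearson intervals, all at 95%. No test was made between single libraries. Depth was 22279758 to 67921924 UMIs per library. Named genes are all 10 members, the listed related genes and the 5 most alike genes. Members and lists were chosen with earlier results of these data known. A gene of the regulator list is not reported here. The scripts were checked on simulated counts. Alternatives changed the scaling, pseudocount, filters, gates, fold, thinning and the summing of similar heavy chains, and 2 (cells that met gates of 2 lineages left out, and weighting over classes of at least 30 cells alone) were chosen after seeing the data. Python 3.11.15, numpy 2.4.6, scipy 1.17.1 and pandas 2.3.3 were used.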

Additional observations from a re-analysis of the deposited data

Results flagged for a closer look

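Some genes differed in direction between cell classes or between libraries under the same contrast. With 1 library per condition these differences were not tested. H2-D1 in D2 CTX over naive BM had a log2 ratio of -0.82 in monocytes and 0.84 in erythroid cells. Psmb9 in the same contrast stood at -0.63 in B lineage and 1.47 in erythroid cells. H2-Q7 in D7 CTX over naive BM stood at -2.53 in neutrophils and 0.59 in monocytes. Gated monocytes of whole BM in D7 CTX over naive and sorted monocytes in CTX over naive differed in sign for 3 genes: H2-K1 (0.44 and -0.19), H2-D1 (0.22 and -0.054) and B2m (0.17 and -0.12).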

How the results depend on the processing

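Over all alternatives, 84 of 86 values of library ratios of at least 0.5 log2 units and 509 of 516 of such class ratios had the sign reported. Centring on the median gene shifted the reference of the log2 ratios by 0.17 (D2 over naive), -0.58 (D7 over naive) and -0.71 (D7 over D2), and leaving out the 20 most abundant genes by 0.035, -0.44 and -0.47. The median of the members for D2 over naive BM was 0.40 with the mean of the CPM of the cells and 0.40 with median scaling. For D7 over naive BM it was -0.67, 0.13 and, without the 20 most abundant genes, -0.012, and for D7 over D2 CTX BM -1.14, -0.26 and -0.49. Members called higher in D2 over naive BM numbered 0 at 1 log2 unit, 3 with the mean CPM and 1 with median scaling. In D7 over naive BM 3 were called higher with median scaling and 1 without the 20 genes, and 1 lower at 1 log2 unit, 5 with the mean CPM, 1 with median scaling and 1 without the 20 genes. In D7 over D2 CTX BM median scaling gave 2 higher and 1 lower. The 3 and the 5 with the mean CPM and these 2 higher have no count of all genes beside them, so they are not read as results. The genes compared numbered 6221 in D2 over naive, 5608 in D7 over naive, 5985 in D7 over D2 and 5549 in the sorted pair. Of all genes, at 1 log2 unit 336 were called higher in D2 over naive, 79 higher and 1250 lower in D7 over naive, 2038 lower in D7 over D2, and 8 higher and 45 lower in the sorted pair. Without a filter on low genes, and so among more genes, these counts were 3641, 634, 6977, 8659, 292 and 442. With median scaling they were 932 in D2 over naive, 1264 and 1058 in D7 over naive and 1363 in D7 over D2, without the 20 genes 991 and 1455 in D7 over naive and 2132 in D7 over D2, and with the mean CPM 232 higher in D7 over naive and 75 higher in the sorted pair. Thinned to 2000 UMIs, the share of cells with H2-K1 differed by 13.2 percentage points (D2 minus naive) and -25.9 (D7 minus D2). At the naive makeup the median was 0.56 on day 2 without cells that met 2 gates and -0.036 on day 7 with gates on thinned cells. The immunoproteasome log2 in D2 CTX BM was 0.42 without cells that met gates of 2 lineages, an alternative chosen after seeing the data.

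The sign turned for these ratios of at least 0.5 log2 units. With median scaling H2-K1 and Tap1 in D7 over naive BM stood at 0.031 and 0.012. In B lineage cells, with gates on thinned cells and with the mean CPM, H2-D1 in D7 over D2 stood at 0.16 and 0.13, and H2-Q7 in D7 over naive at 0.15 and 0.086. Summed with H2-D1, H2-K1 in neutrophils stood at -0.14 (D2 over naive) and 0.23 (D7 over D2), and H2-Q7 summed with H2-Q4, H2-Q6 and H2-Q10 in D2 neutrophil precursors, where H2-Q7 had too few UMIs for a call, at 0.099. The cause was not tested. No paired analysis was possible because each condition has 1 library. Depth limits Nlrc5 and H2-Q7 in myeloid classes, which rest on few UMIs.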
